A study of Mus musculus with 2 samples.

Results

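The 10 Notch genes described here are the receptors Notch1, Notch2, Notch3 and Notch4, the ligands Dll1, Dll4, Jag1 and Jag2, and the target genes Hey1 and Hey2. They were taken by symbol from the count tables, in which 22203 genes had at least 1 unique molecular identifier (UMI, a tag that counts each captured mRNA molecule once) in the cells kept. All 10 were detected in both libraries, with 15688 UMIs in all at P1 and 31530 at P7. Notch receptors sit in the cell membrane and are cut when a Delta-like or Jagged ligand on a neighbouring cell binds them. The released intracellular domain enters the nucleus, where it acts with the DNA-binding protein RBPJ on genes such as those of the Hey transcriptional repressors. In the heart the pathway is best known for its roles in the endocardium and the valves, in the identity of arteries and in the maturation of vascular smooth muscle.

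Live cells were obtained from hearts of mice at postnatal day 1 (P1) and postnatal day 7 (P7), and 1 library was made per age from 3 pooled littermate hearts. Collagenase digestion lasted 20 min at P1 and 45 min at P7, and red blood cells were lysed. The mice were intact, and their genotype and strain were not given in the sources used here. The study used the libraries to compare gene expression between the ages in all cell populations and in fibroblasts, with a focus on the epicardium. The Notch genes are described here across the main cell classes other than the epicardium.

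After filtering, 4991 of 7836 barcodes remained at P1 and 8511 of 9077 at P7, with a median of 10875 and 10104 UMIs per cell, and 18 barcodes occurred in both libraries. Sex was not matched: Xist, expressed from the inactive X chromosome, had 57336 UMIs at P1 and 12 at P7, and 4 Y-linked genes had 2 and 18039 UMIs. With 1 library per age, age, sex, digestion time and library cannot be told apart, and no test between the ages was possible. All intervals given are 95% counting intervals, which do not cover the variation between hearts.

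Cells were sorted into 6 classes by gate genes outside the list, each needing at least 1 UMI. Cells with Cdh5, the endothelial cadherin, were called arterial with Gja5 (39 at P1, 157 at P7), capillary with Aplnr (874 and 2615) and endocardial with Npr3 (254 and 77). Cells without Cdh5 were called fibroblasts with Pdgfra (1116 and 2143), smooth muscle with Myh11 (130 and 316) and pericytes with Kcnj8 (218 and 357). Cells that met more than 1 gate were left out, and 52.7% of cells fell into a class at P1 and 66.6% at P7. Deeper cells pass such gates more readily, and no doublet caller was used. Of the 8 further markers listed for each class, all 8 were highest in their own class in both libraries for arterial, endocardial, fibroblast and smooth muscle cells. In pericytes 7 of 8 were highest at both ages, and in capillary cells 6 of 8 at P1 and 7 of 8 at P7.

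A level below is the UMIs of a gene summed over a class and scaled to CPM, the count in each 1000000 UMIs of that class, so that fewer cells with a transcript and less transcript per cell cannot be told apart. Levels were compared within a gene and not between genes, because the libraries count 3-prime ends and genes are captured with unequal efficiency. Markers of other cells were not evenly spread over the classes. The 8 leukocyte markers summed to 2816 CPM in P1 smooth muscle and 533 CPM at P7, and the 8 pericyte markers to 3227 and 5920 CPM. The 8 fibroblast markers reached 9904 and 15414 CPM in P1 and P7 pericytes, and 2899 and 9028 CPM in endocardial cells. Haemoglobin genes with Alas2 gave 2688 CPM in P1 capillary cells and 938 CPM at P7, and were higher at P7 in smooth muscle (9.16 and 1849 CPM) and fibroblasts (11.1 and 493 CPM). In arterial cells the gate gene Gja5 had 254 CPM (P1) and 465 CPM (P7), while the 8 arterial markers summed to 4259 and 6660 CPM. The capillary markers gave 1782 and 981 CPM there, the endocardial markers 864 and 389.8 CPM and the fibroblast markers 2512 and 4226 CPM. Lung markers gave 107 CPM in P1 capillary cells and 173 CPM in P1 pericytes, against 9.30 and 42.7 CPM at P7.

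The promoters of Hey2, Notch3 and Dll4 are shown because Hey2 and Notch3 shared smooth muscle as their leading class, whereas Dll4 led in arterial cells. They are the bases before the annotated start on the strand of the gene, read from RefSeq on GRCm38.p6, which matched 9 of the 10 genes. Hey1 was not matched. Capitals mark the core letters bound by RBPJ (TGGGAA or, on the other strand, TTCCCA) and the SP/KLF box (GGGCGG or CCGCCC).
Hey2: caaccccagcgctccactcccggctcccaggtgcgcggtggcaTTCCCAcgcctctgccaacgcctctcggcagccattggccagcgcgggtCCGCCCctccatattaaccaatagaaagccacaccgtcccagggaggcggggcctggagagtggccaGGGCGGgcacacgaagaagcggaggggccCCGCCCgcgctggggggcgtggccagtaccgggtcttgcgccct
Notch3: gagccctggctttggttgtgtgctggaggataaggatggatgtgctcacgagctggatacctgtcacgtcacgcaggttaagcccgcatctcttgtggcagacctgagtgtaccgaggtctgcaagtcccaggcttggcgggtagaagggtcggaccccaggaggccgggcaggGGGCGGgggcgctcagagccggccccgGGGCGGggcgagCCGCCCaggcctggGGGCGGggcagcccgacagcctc
Dll4: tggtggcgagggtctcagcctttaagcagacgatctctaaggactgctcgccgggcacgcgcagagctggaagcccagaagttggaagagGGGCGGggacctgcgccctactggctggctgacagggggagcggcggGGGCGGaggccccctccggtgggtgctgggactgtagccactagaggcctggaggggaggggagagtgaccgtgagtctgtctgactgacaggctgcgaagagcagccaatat
The Hey2 sequence covers chr10:30842802-30843033 on the minus strand, 232 bases, with the 18 bases nearest to the RefSeq start left out because they lie in the GENCODE transcript. The Notch3 sequence covers chr17:32166891-32167140 on the minus strand and the Dll4 sequence chr2:119325534-119325783 on the plus strand, 250 bases each. TTCCCA was found at 207 to 202 bases before the RefSeq start of Hey2, and neither orientation of the RBPJ core was found in the windows of the other 8 genes. Of 32851 promoter windows of 250 bases, 21.6% held the RBPJ core, so that 1 of 9 genes is no more than a description of these letters. The SP/KLF box occurred 3 times at Hey2, 4 times at Notch3 and 2 times at Dll4, and 32.7% of all windows held it. It occurred 5 times each at Jag2, Notch1 and Notch2, and was not found at Dll1, Jag1 and Notch4. By the gene positions given below, the windows of Notch1 and Jag2 and a window of Dll1 lie inside the GENCODE gene. Those of Jag1, Notch2 and Notch4 lie partly inside it. The box holds only G and C. The windows of Hey2, Notch3 and Dll4 were 71.6%, 68.8% and 65.6% G or C, against a median of 52.4% over all windows. The part of this base content in the number of boxes was not tested. An ETS core (CCGGAA or TTCCGG), present in 12.03% of all windows, was found in none of the 9 genes.

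On GRCm38 (GENCODE M21) Notch1 (chr2:26457903-26516663), Dll4 (chr2:119325784-119335962) and Jag1 (chr2:137081456-137116644) lie on chromosome 2. Notch3 (chr17:32120820-32166852), Notch4 (chr17:34564268-34588503) and Dll1 (chr17:15367354-15376872) lie on chromosome 17, and Notch2 (chr3:98013527-98150361) and Hey1 (chr3:8663359-8667256) on chromosome 3. Jag2 (chr12:112907819-112929776) and Hey2 (chr10:30832359-30842801) are alone on theirs. Notch1, Notch2 and Jag2 overlap small annotated genes on their own strand (Mir6996, Gm42819 with Gm42820, and Mir6941). Notch1, Notch3, Notch4, Dll1 and Dll4 overlap a gene on the opposite strand, and the strand setting of the counting was not given in the sources used here.

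The Notch genes were divided between the gated classes. Notch4, Dll4, Jag1, Jag2 and Hey1 had their highest level in arterial cells and Notch1 in endocardial cells. Notch3 and Hey2 were highest in smooth muscle and Notch2 in fibroblasts. The leading class was the same at both ages for these 9 genes, whereas Dll1 was led by endocardial cells at P1 and by arterial cells at P7. The share of all genes that kept their leading class was not counted. The leads of Notch1, Notch2, Notch4 and Jag1 at P1, and of Notch2 at P7, were not told apart from the next class. Under several alternative settings Notch2 and P1 Jag1 were led by smooth muscle. A level over 2 times the mean of the other 5 classes was found in 14 of 60 gene and class pairs at P1 and in 14 at P7. Of these, 13 were shared by both ages, and such sharing was not counted over all genes. In arterial cells 6 of the 10 genes passed this fold at P1 and 7 at P7, against 8.24% and 8.01% of all genes with at least 20 UMIs in the classes. In smooth muscle 4 and 3 passed, against 11.8% and 9.81%. Endocardial cells had 2 and 2 (6.63% and 9.12% of all genes), fibroblasts 1 and 1 (9.27% and 9.78%), pericytes 1 and 1 (9.09% and 11.1%) and capillary cells 0 and 0 (5.98% and 7.76%).

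**Figure D1:**
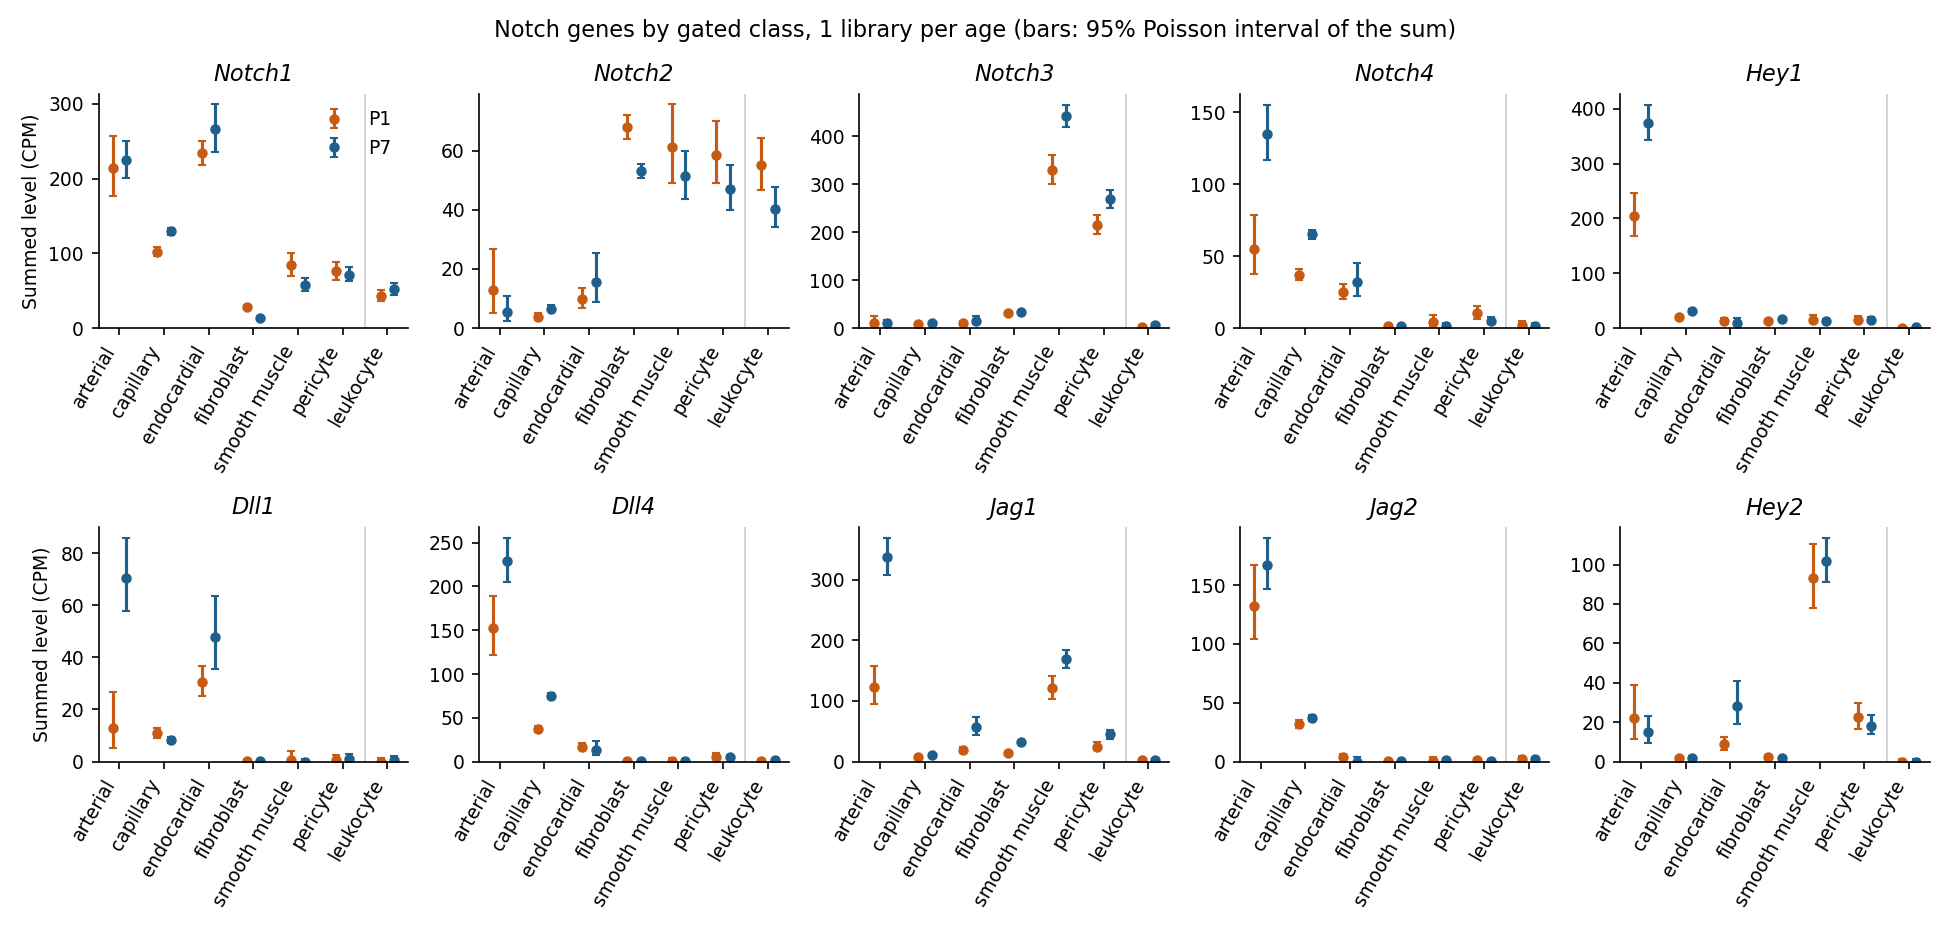
Level of each Notch gene (CPM, linear axis from 0) in the 6 gated classes and in leukocyte-gated cells, at P1 (orange) and P7 (blue), with bars for the exact Poisson 95% interval. Dll4, Jag2 and Hey1 stood highest in arterial cells at both ages and Notch3 and Hey2 in smooth muscle, and Notch2 was similar in the 3 stromal classes.

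Notch1, a receptor of endocardium and of sprouting and arterial endothelium, was highest in the Cdh5 classes. Endocardial cells had 234 CPM at P1 (219 to 250) and 266 CPM at P7 (235 to 300), and arterial cells 214 CPM (177 to 256) and 225 CPM (201 to 251). These classes were not told apart at P1, and the endocardial level was higher by 0.24 on the log2 scale at P7 (0.0040 to 0.48). Capillary cells followed with 102 and 129 CPM. Smooth muscle (83.9 and 57.9 CPM) and pericytes (75.9 and 71.4 CPM) were not told apart at P1, and at P7 pericytes were the higher. Fibroblasts were lowest, with 27.8 CPM at P1 and 13.9 CPM at P7. Of the Notch1 UMIs in the 6 classes, 73.1% at P1 and 81.0% at P7 came from the 3 endothelial classes. Cells gated as leukocytes (Ptprc, without Cdh5 or a stromal gate gene) had 42.9 CPM at P1 and 52.0 CPM at P7, so that Notch1 was not limited to vessels.

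Notch2, a receptor with known roles in smooth muscle and in blood cells, had the opposite distribution. It had 67.9 CPM at P1 (64.1 to 71.9) and 53.1 CPM at P7 (50.7 to 55.5) in fibroblasts, 61.3 and 51.3 CPM in smooth muscle, and 58.7 and 47.0 CPM in pericytes. Among these stromal classes no neighbours in the order were told apart at either age. The endothelial classes lay between 3.87 CPM (capillary, P1) and 15.7 CPM (endocardial, P7), and held 5.71% of the class UMIs at P1 and 7.96% at P7. Leukocytes had 55.1 and 40.4 CPM, close to the stromal level.

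Notch3, the receptor of the mural cells that wrap vessels, was highest in smooth muscle and pericytes. Smooth muscle had 331 CPM at P1 (301 to 362) and 443 CPM at P7 (420.0 to 466), and pericytes 216 CPM (196 to 236) and 269 CPM (251 to 287). Both were told apart from each other and from the fibroblasts, which had 30.8 and 32.6 CPM, and the endothelial classes lay between 8.76 and 14.7 CPM. After each cell was thinned to 2000 UMIs, 42.4% of smooth muscle cells had a Notch3 UMI at P1 (33.3 to 51.8) and 56.3% at P7 (50.4 to 62.1), against 75.4% and 87.7% without thinning. In leukocytes the thinned share was 0% at P1 and 1.99% at P7 (0.861 to 3.87). Median depth before thinning was 10965 and 9712 UMIs in smooth muscle and 6726 and 6054 in leukocytes. Fibroblasts, at a far lower level but more numerous, held 20.4% of all Notch3 UMIs at P1 and 20.8% at P7.

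Notch4, a receptor largely restricted to endothelium, was ordered arterial, capillary and endocardial at both ages. The levels were 55.3 CPM (37.3 to 78.9), 37.2 CPM (33.6 to 41.0) and 24.9 CPM (20.0 to 30.6) at P1. They were 135 CPM (117 to 155), 65.3 CPM (62.2 to 68.5) and 32.3 CPM (22.2 to 45.3) at P7. The arterial and capillary levels were told apart at P7 and not at P1. The stromal classes had at most 10.2 CPM, and the endothelial classes held 91.0% and 96.5% of the class UMIs.

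Dll4, the Delta-like ligand of arteries and of sprouting tip cells, was almost wholly endothelial. Arterial cells had 153 CPM at P1 (122 to 190) and 229 CPM at P7 (205 to 255), capillary cells 36.9 CPM (33.4 to 40.7) and 74.8 CPM (71.5 to 78.2), and endocardial cells 16.9 and 13.7 CPM. Each step of this order was larger than counting error at both ages. Pericytes had 5.59 and 4.64 CPM, and fibroblasts and smooth muscle stayed below 1 CPM, near the 0.698 and 1.44 CPM of leukocytes. Because capillary cells were numerous, 42.4% of all Dll4 UMIs at P1 and 64.6% at P7 were counted in them, and 8.80% and 11.1% in arterial cells. After thinning, 7.81% of P1 capillary cells (6.09 to 9.83) and 16.0% of P7 capillary cells (14.6 to 17.5) had a Dll4 UMI, against 29.7% and 44.4% without thinning and 0.318% and 0.496% of thinned leukocytes.

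Dll1, the other Delta-like ligand, was the sparsest of the ligands, with 348 UMIs at P1 and 504 at P7. At P1 it was highest in endocardial cells (30.4 CPM, 25.0 to 36.6), while arterial cells had 12.9 CPM (5.19 to 26.6) on 7 UMIs from 4 cells and capillary cells 10.8 CPM. At P7 arterial cells had 70.6 CPM (57.6 to 85.7) on 102 UMIs from 35 cells, endocardial cells 47.9 CPM (35.5 to 63.4) and capillary cells 8.21 CPM. Each lead was larger than counting error, but at P7 it passed to endocardial cells when the arterial gate was widened to cells with Gja4 and Sox17. Stromal classes had at most 6 Dll1 UMIs each, and P7 smooth muscle had 0, which allows up to 0.933 CPM.

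Jag1, the Jagged ligand of arterial endothelium and smooth muscle, was the ligand with a high level in both arterial cells and smooth muscle. Arterial cells had 123 CPM at P1 (95.7 to 157) and 337 CPM at P7 (308 to 368), and smooth muscle 121 CPM (104 to 141) and 169 CPM (155 to 184). They were not told apart at P1, whereas arterial cells were higher by 1.00 on the log2 scale at P7 (0.82 to 1.18). Pericytes (24.7 and 44.8 CPM), endocardial cells (18.2 and 56.7 CPM) and fibroblasts (13.6 and 31.7 CPM) followed, and capillary cells were lowest with 8.11 and 11.4 CPM. Of the class UMIs of Jag1, 67.5% at P1 and 68.6% at P7 were in the stromal classes, whereas Dll1, Dll4 and Jag2 had between 1.99% and 3.03% there.

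Jag2, the other Jagged ligand, was endothelial like Dll4 but all but missing from endocardial cells. Arterial cells had 133 CPM (104 to 167) and 168 CPM (147 to 190), and capillary cells 31.7 CPM (28.5 to 35.3) and 37.0 CPM (34.7 to 39.4). Endocardial cells had 13 UMIs at P1 (3.59 CPM, 1.91 to 6.14) and 0 at P7, which allows up to 2.93 CPM. The stromal classes had at most 1.24 CPM, and leukocytes 2.09 and 1.73 CPM.

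Hey1, a repressor induced by Notch in arterial endothelium, separated arterial cells from the other gated classes. It had 205 CPM at P1 (168 to 246) and 375 CPM at P7 (344 to 407) in arterial cells, or 13.1 and 21.8 times the mean of the other classes. A single P1 arterial cell held 23 of the 111 UMIs. Capillary cells had 19.7 and 31.6 CPM, and the 4 remaining classes lay between 9.78 and 17.1 CPM with no neighbours told apart. Outside the classes, cells with Cdh5 and no subtype gene had 59.1 CPM at P1 and 82.2 CPM at P7. They held 32.1% and 24.1% of all Hey1 UMIs, against 8.18% and 16.2% in arterial cells. Leukocytes had 0 UMIs at P1, which allows up to 1.05 CPM, and 1.44 CPM at P7, below the level in fibroblasts and mural cells. After thinning, 28.2% of arterial cells had a Hey1 UMI at P1 (15.0 to 44.9) and 50% at P7 (41.7 to 58.3), against 66.7% and 80.3% without thinning. The thinned shares were 3.79% and 6.04% in capillary cells and 0% and 0.248% in leukocytes, and median depth was 12434 and 8146 UMIs in arterial cells.

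Hey2, the related repressor known from arteries, smooth muscle and ventricular muscle, was highest in smooth muscle. It had 93.1 CPM there at P1 (77.9 to 110.4) and 102 CPM at P7 (91.0 to 113), or 8.14 and 7.74 times the mean of the other classes. Pericytes (22.4 and 18.2 CPM) and arterial cells (22.1 and 15.2 CPM) were not told apart at either age, and endocardial cells had 8.84 CPM at P1 and 28.4 CPM at P7. Capillary cells and fibroblasts had between 1.57 and 2.32 CPM, and leukocytes had 0 UMIs at both ages, which allows up to 1.05 and 0.866 CPM. Smooth muscle held 22.8% of all Hey2 UMIs at P1 and 37.3% at P7. Thinned to 2000 UMIs, 16.9% of P1 smooth muscle cells (10.7 to 25.0) and 21.2% at P7 (16.6 to 26.3) had a Hey2 UMI, against 48.5% and 53.8% without thinning and 0% of thinned leukocytes. Hey1 in smooth muscle was 15.5 and 12.4 CPM. Of the promoters above, that of Hey2 holds the RBPJ core.

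**Figure D2:**
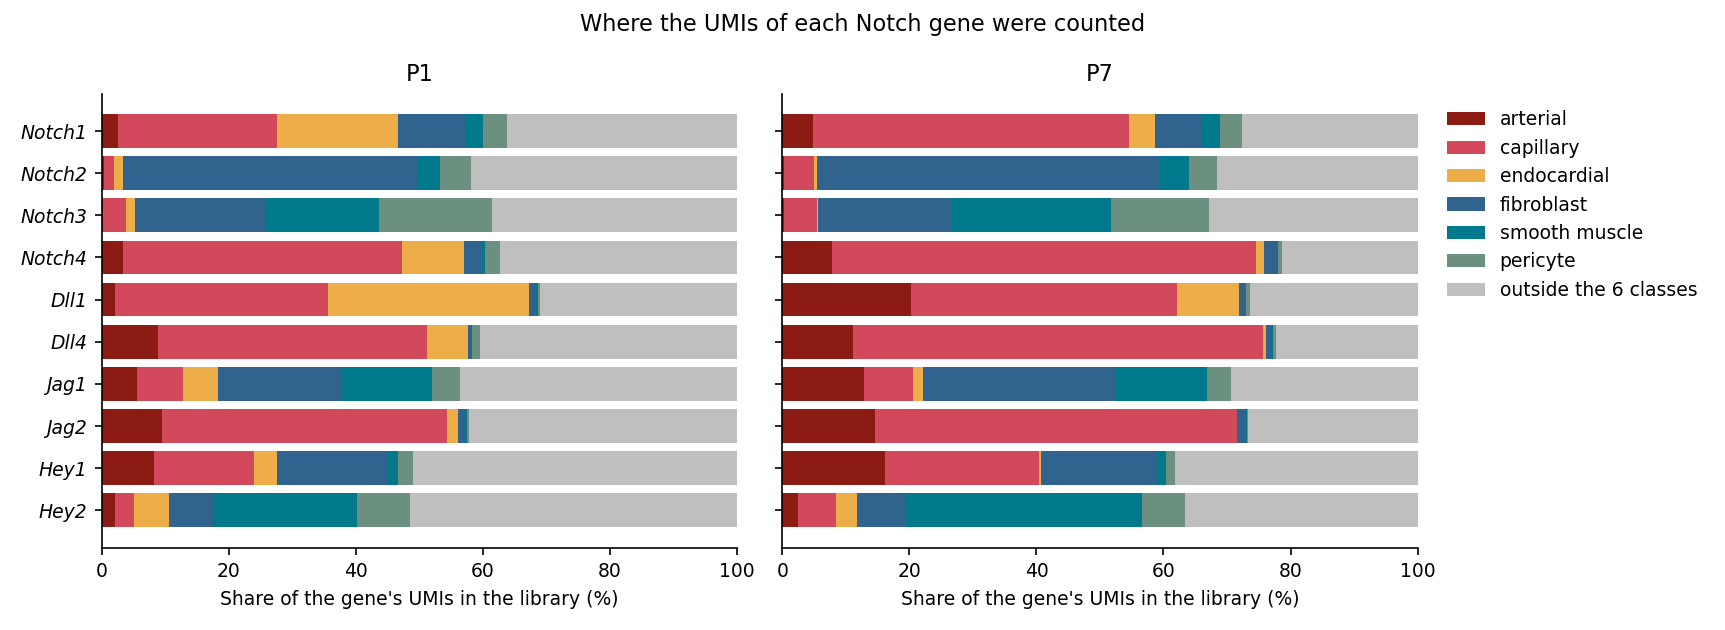
Share of each gene's UMIs in a library (%, stacked to 100) that was counted in each gated class at P1 and P7, with cells outside the classes in grey. Capillary cells held the largest share among the classes for Notch1, Notch4, Dll1, Dll4 and Jag2 at both ages, although arterial or endocardial cells had the higher level.

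Because Gja5 defines the arterial class, the genes were also followed over the number of Gja5 UMIs in all cells with Cdh5, whatever other gates they met. At P7, with 3795 cells at 0, 63 at 1, 36 at 2 and 93 at 3 or more, Hey1 had 44.2, 275, 392 and 381 CPM and Jag1 had 23.2, 214, 309 and 348 CPM. Both stood several-fold higher with a single Gja5 UMI than with none. Dll1 differed from them, with 9.01, 5.26, 41.6 and 123 CPM. It was at its base level in cells with 1 Gja5 UMI (1.08 to 15.4) and highest with 3 or more (103 to 146). At P1, with 1910, 32, 16 and 19 cells, Hey1 had 31.6, 124, 291 and 221 CPM and Jag1 15.5, 57.8, 153 and 154 CPM, whereas Dll1 had 13.5, 20.0, 14.5 and 27.7 CPM. Notch1 varied less, from 128 CPM at 0 to 223 CPM at 3 or more at P7, and from 125 to 169 CPM at P1 with a top of 262 CPM at 2. Median depth ranged from 7350 to 9687 UMIs over the grades at P7 and from 8238 to 14849 UMIs at P1, and its part in the grading was not tested.

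**Figure D3:**
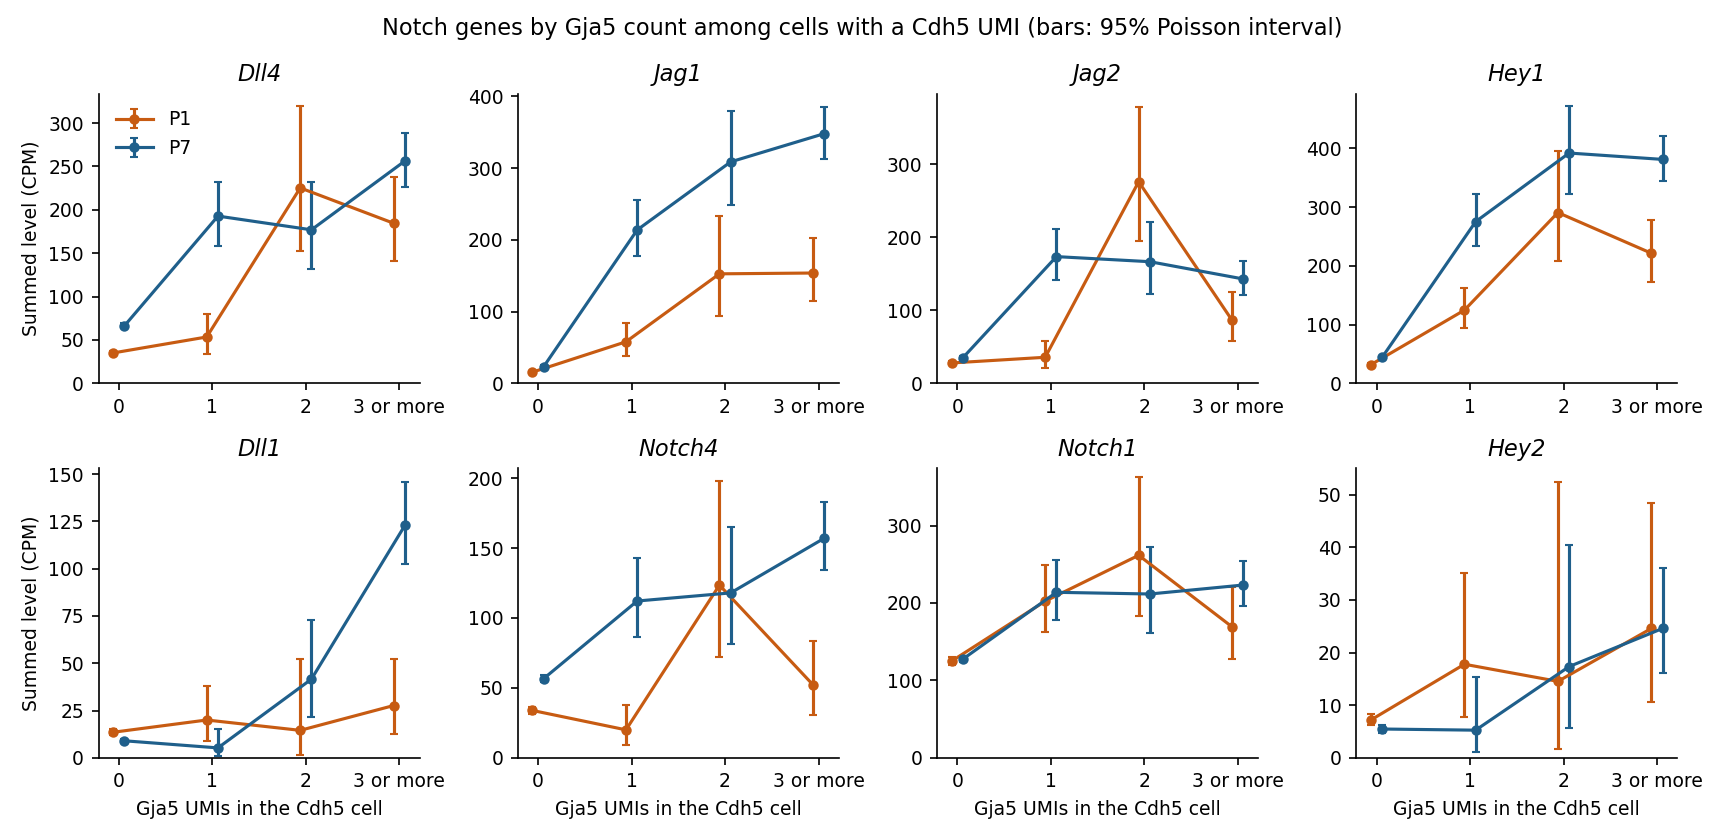
Level (CPM, linear axis from 0) of 8 Notch genes in Cdh5 cells by their number of Gja5 UMIs, P1 in orange and P7 in blue, with exact Poisson 95% intervals. At P7 Hey1, Jag1, Dll4, Jag2, Notch4 and Notch1 were already higher in cells with 1 Gja5 UMI than in cells with 0, and Dll1 was higher from 2 UMIs on.

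Over all cells no Notch gene differed by 2-fold between the ages as reported, where 12.9% of all genes did. Jag1 (20.4 CPM at P1, 38.8 at P7, log2 ratio of P1 over P7 -0.92) and Dll4 (16.0 and 30.5 CPM, -0.93) came nearest, followed by Notch4 (15.5 and 25.8 CPM, -0.73) and Hey1 (23.0 and 34.4 CPM, -0.58). All 4 were higher at P7. Notch3 (-0.39) and Jag2 (-0.40) were also higher at P7. Notch1, Notch2, Dll1 and Hey2 had ratios between 0.12 and 0.23, and the intervals of Dll1 and Hey2 held 0. With cells thinned to 2000 UMIs and with the mean of per-cell CPM, Dll4 passed 2-fold (-1.15 and -1.26), Notch4 had -1.04 and -0.99, and Notch1 turned from 0.13 to -0.13 and -0.14. These sums also carry the different shares of the classes in the libraries.

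Of the 60 gene and class pairs, 51 had at least 20 UMIs over both libraries, and 9 of these passed 2-fold, 8 towards P7 and 1 towards P1. All genes past 2-fold also leaned to P7 in arterial (523 against 271 towards P1), capillary (842 against 375) and endocardial cells (625 against 479). They leaned to P1 in fibroblasts (974 against 631 towards P7), smooth muscle (754 against 384) and, slightly, pericytes (398 against 370). The counting interval lay below 0 (higher at P7) in 23 pairs, above 0 in 5 and on both sides of 0 in 23. Intervals were not counted in this way over all genes, so these numbers have no background and describe the pairs only. In arterial cells 3 of 9 genes passed 2-fold, against 9.51% of all genes, and the median ratio was -0.58 against -0.08 for all genes. The arterial markers were also higher at P7 in this class and the capillary and endocardial markers lower, by the values given above, and their part in the arterial ratios was not tested. In endocardial cells 2 of 9 passed (10.4% of all genes, median -0.55 against -0.08) and in capillary cells 1 of 10 (9.22%, median -0.42 against -0.11). In fibroblasts 2 of 9 passed (11.3%, median 0.03 against 0.04), in smooth muscle 0 of 6 (10.8%, median 0.07 against 0.03) and in pericytes 1 of 8 (6.86%, median 0.18 against -0.03). In capillary cells, fibroblasts, smooth muscle and pericytes the number was within 1 gene of the share of all genes.

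**Figure D4:**
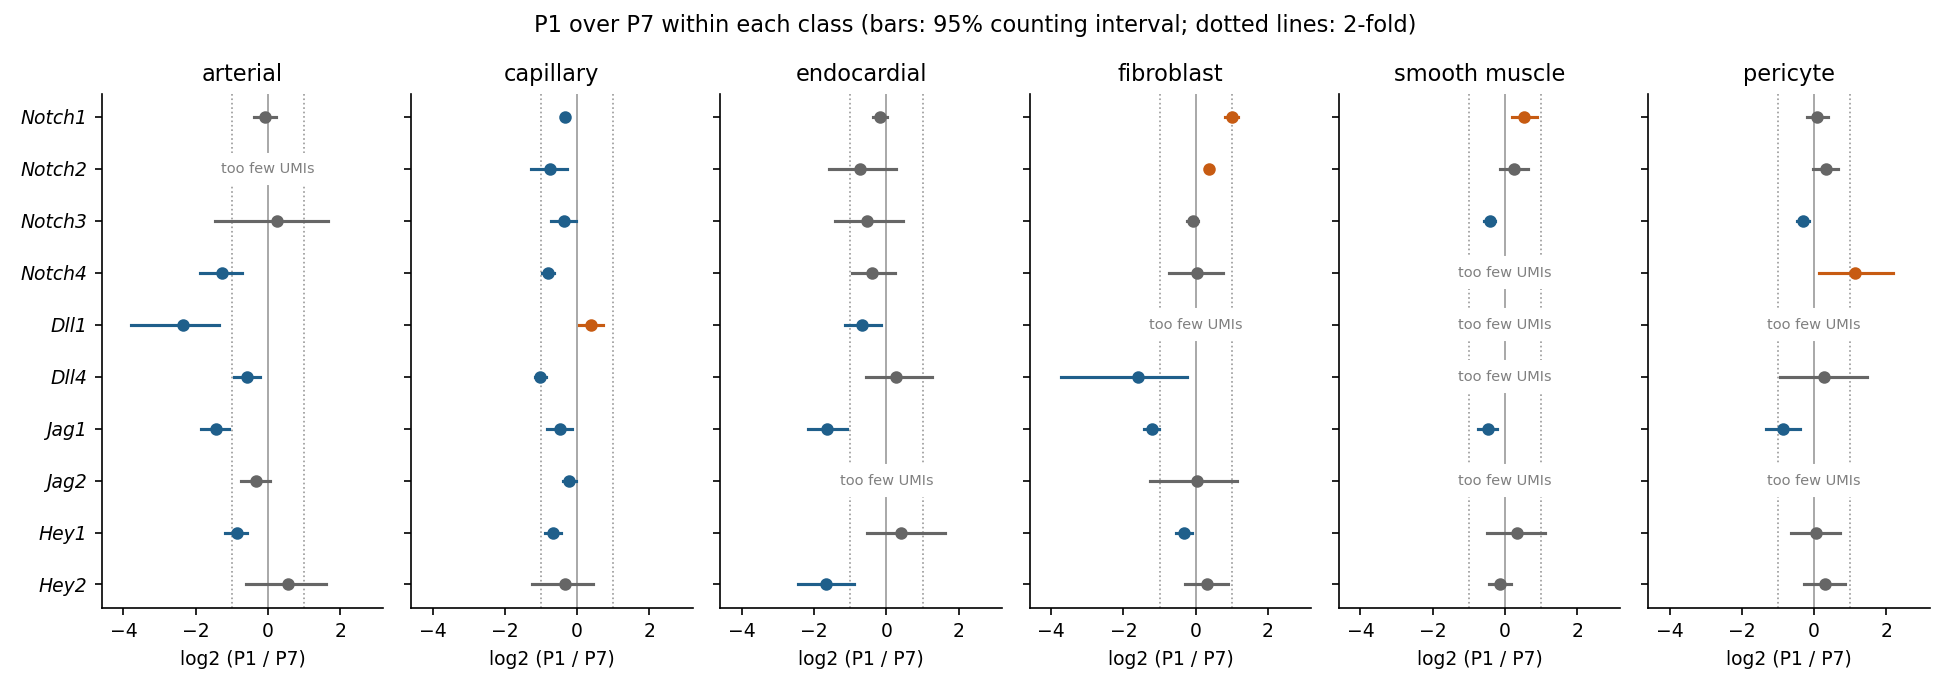
Log2 ratio of P1 over P7 for each Notch gene within each class, with 95% counting intervals, coloured blue where the interval lies below 0 (higher at P7), orange where it lies above 0 and grey otherwise, and dotted lines at 2-fold. Jag1 lies left of 0 in all 6 classes.

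Jag1 was higher at P7 in each of the 6 classes, in capillary cells under 14 of the 15 alternative settings and in the other classes under all 15. Among these settings, those of at least 50 and at least 1 UMI cannot move a ratio. The log2 ratio of Jag1 was -1.44 in arterial cells (-1.84 to -1.08), -1.64 in endocardial cells (-2.17 to -1.10) and -1.22 in fibroblasts (-1.43 to -1.02). These 3 values stayed past 2-fold under all 15. It was -0.85 in pericytes (-1.34 to -0.40), -0.48 in smooth muscle (-0.73 to -0.23) and -0.48 in capillary cells (-0.85 to -0.14). The capillary value became 0.03 without cells carrying stromal genes, here the gate genes Pdgfra, Myh11 and Kcnj8. In P7 endocardial cells, where Jag1 was 56.7 CPM against 18.2 CPM at P1, fibroblast markers (9028 against 2899 CPM) and the 5 epicardial markers (204 against 43.7 CPM) were also higher. Without cells carrying stromal genes the endocardial ratio was -1.65. That setting does not remove cells by their epicardial or other fibroblast markers, and the part of these markers in the ratio was not tested.

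Dll4, Hey1 and Notch4 were higher at P7 in arterial and capillary cells, and in arterial cells the summed arterial markers (4259 and 6660 CPM) moved with them. For Dll4 the ratio was -0.58 in arterial cells (-0.95 to -0.23) and -1.02 in capillary cells (-1.18 to -0.86), the latter just past 2-fold and -0.91 when centred on the median of all genes in capillary cells, -0.11. For Hey1 it was -0.87 (-1.18 to -0.58) and -0.68 (-0.90 to -0.46), and for Notch4 -1.27 (-1.89 to -0.73) and -0.81 (-0.97 to -0.66). In endocardial cells the intervals of all 3 genes held 0. The arterial value of Notch4 was -0.64 with cells thinned to 2000 UMIs, -0.95 with 2 UMIs required of each gate gene and -0.92 with the wider arterial gate. In pericytes Notch4 was higher at P1 (1.13, 0.13 to 2.19) on 22 and 15 UMIs, and this became 0.77 without cells carrying a lung gene and 0.46 with cells of several gates kept.

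In arterial cells Dll1 had the largest ratio of the 51 pairs, -2.36 (-3.80 to -1.36), on 7 and 102 UMIs. It was -0.67 in endocardial cells (-1.16 to -0.14) and 0.40 in capillary cells (0.05 to 0.73), where it became -0.0058 without cells carrying a lung gene. Arterial Jag2 (-0.33, -0.74 to 0.05) and Notch1 (-0.07, -0.39 to 0.24) had intervals that held 0. Over the alternative settings the arterial Jag2 value ranged from -0.79, outside this interval and with cells of several gates kept, to 0.19.

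Among the mural genes, Notch3 was higher at P7 in smooth muscle (-0.42, -0.57 to -0.27) and pericytes (-0.32, -0.48 to -0.15), while Hey2 in smooth muscle was -0.13 (-0.43 to 0.17). Leaving out cells with a Ptprc UMI or haemoglobin gave -0.35 for Notch3 and -0.0018 for Hey2 in smooth muscle, the class in which leukocyte markers were higher at P1. In endocardial cells Hey2 was higher at P7 (-1.68, -2.45 to -0.90), on 32 UMIs from 17 cells at P1 and 29 UMIs from 11 cells at P7, of which 1 cell held 9. With 2 UMIs required of each gate gene this value was -0.58, and without cells carrying stromal genes it was -2.29. In capillary cells Notch3 was -0.36 (-0.72 to -0.03), and 1 P1 cell held 24 of the 95 UMIs there.

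Notch1 and Notch2 were higher at P1 in fibroblasts and higher at P7 in capillary cells. Notch1 had a ratio of 1.00 in fibroblasts (0.81 to 1.18), just short of 2-fold, 0.54 in smooth muscle (0.19 to 0.88) and -0.34 in capillary cells (-0.44 to -0.24). Notch2 had 0.36 in fibroblasts (0.25 to 0.46) and -0.75 in capillary cells (-1.29 to -0.27), with intervals that held 0 in smooth muscle and pericytes. Dll4 in fibroblasts passed 2-fold (-1.60, -3.72 to -0.23) on 4 UMIs at P1 and 28 at P7, a level under 1 CPM at both ages.

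The rest of the pathway was read from a list of 51 genes in 4 groups. The 10 genes of receptor processing, such as the cleaving protease Adam10, had enough UMIs in every class, and none passed 2-fold in any of the 6. The same was true of the 10 nuclear genes with enough UMIs, Rbpj among them, whose own ratios ran from -0.54 in capillary cells to 0.21 in pericytes. Of all 51 genes, 0 of 40 passed 2-fold in arterial cells, 5 of 46 in capillary cells (2 towards P1), 4 of 42 in endocardial cells (3 towards P1), 3 of 47 in fibroblasts (all towards P1), 4 of 40 in smooth muscle (3 towards P1) and 2 of 42 in pericytes (both towards P1). The share of all genes past 2-fold was 9.51% in arterial cells, 9.22% in capillary cells, 10.4% in endocardial cells, 11.3% in fibroblasts, 10.8% in smooth muscle and 6.86% in pericytes, so that the list lay near or below it in each class. All of the pathway genes past 2-fold were modifiers of ligand and receptor or targets.

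Dlk1, a non-canonical ligand of fetal tissue, was higher at P1 in the 5 classes in which it could be read. It had 1113 CPM at P1 and 80.9 CPM at P7 in fibroblasts (3.78, 3.73 to 3.84) and 744 and 60.3 CPM in pericytes (3.62, 3.41 to 3.85). The levels were 98.0 and 14.9 CPM in smooth muscle (2.70), 48.2 and 7.79 CPM in capillary cells (2.63) and 152 and 37.2 CPM in endocardial cells (2.02). The 8 fibroblast markers summed to 25999 CPM in P1 fibroblasts. They gave 9904 CPM in P1 pericytes, 4257 CPM in P1 smooth muscle, 1280 CPM in P1 capillary cells and 2899 CPM in P1 endocardial cells. Whether the Dlk1 levels outside fibroblasts, those of pericytes included, came from fibroblast transcripts was not tested. Dlk2 in capillary cells was higher at P7 (-2.48) on 4 and 59 UMIs, and Neurl1a, a ubiquitin ligase, was higher at P1 in fibroblasts (1.70) on 67 and 43 UMIs. Cxcr4, the receptor of Cxcl12, was higher at P1 in pericytes (1.61) and smooth muscle (2.34, on 14 and 6 UMIs). The leukocyte markers summed to 2816 CPM at P1 and 533 CPM at P7 in smooth muscle, and to 416 and 502 CPM in pericytes. Their part in these ratios was not tested. In arterial cells Cxcr4 had -0.92 and Rfng, a Fringe glycosyltransferase, had -0.95. Named after their values were seen, Cxcr4 (-1.90) and the netrin receptor Unc5b (-1.22) were the other listed genes past 2-fold towards P7 in capillary cells, and Unc5b was higher at P1 in fibroblasts (1.43).

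Among the targets, Sox17, an arterial transcription factor that also served as a marker of the class, had 652 CPM at P1 and 946 CPM at P7 in arterial cells, or 20.2 and 55.4 times the mean of the other classes. In endocardial cells it had 26.0 and 5.87 CPM (2.04). Cxcr4 in arterial cells had 42.4 and 81.7 CPM. Heyl, a further Hey family gene, had 224 and 213 CPM in smooth muscle and 134 and 197 CPM in pericytes, the classes in which Notch3 was highest. Nrarp, a feedback inhibitor of Notch, had 285 and 368 CPM in smooth muscle. In capillary cells it had 160.1 and 139 CPM, only 1.33 and 1.11 times the mean of the other classes. Arterial cells had more Nrarp at P1, with 210 CPM, and a level close to that of capillary cells at P7, with 145 CPM. Ccnd1, a cyclin, had 685 and 584 CPM in capillary cells. Efnb2 in endocardial cells (96.2 and 176 CPM), Hes6 in endocardial cells and fibroblasts, and Myc in fibroblasts and pericytes were within 1.63 times the mean of the other classes.

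Over the 12 class and library points, the genes whose log2(CPM + 1) followed a Notch gene most closely were searched among 13108 genes with at least 100 UMIs. The correlations are descriptions, since the 6 points of a library share its depth and many genes follow the same split of endothelium and stroma. Notch1 was nearest to G3bp2 (r = 0.95), Lmo7 and Agrn, Notch2 to Meis3 (0.98), Dzip1 and Snx12, Notch3 to Plce1 (0.98), Plxnb1 and Palm2, and Notch4 to Mta2 (0.98), F11r and Plekhg5. Plekhg5 was also the nearest to Dll4 (0.98), ahead of H2-Q4 and Sigirr. Jag2 was nearest to Abcb1a (0.99), Ssu2 and Bdkrb2, Dll1 to Hid1 (0.98), Pnpla6 and Taok2, and Jag1 to Atp2a3 (0.95), Fchsd2 and Vangl2. For Hey1 the nearest were Snx11 (0.96), Eps8l2 and Rasgrf2, and for Hey2 Slc38a2 (0.94), Snrpn and mt-Nd4l.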

How the data were processed

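Single-cell 3-prime RNA libraries of P1 and P7 mouse hearts were read from the UMI count matrices the authors deposited, 1 per age. Per the submitters' processing notes they came from Cell Ranger 3.1.0 on mm10/GRCm38, and filtering, integration and clustering done by the authors afterwards are not in them. All columns were mapped, with 0 unused.

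Barcodes with 200 to 8000 genes and at most 20% mitochondrial UMIs were kept. UMIs were summed per library and gated class and scaled to CPM, with an exact Poisson 95% interval. Log2 ratios had 0.5 counts added to each sum and an exact conditional binomial interval, and shares of cells a Clopper-Pearson interval. Cells were thinned to 2000 UMIs for shares, and 574 P1 cells and 727 P7 cells were too shallow for this. Intervals and floors (3 counts of the total) cover counting error only. Since 1 library per age was available, no test was made, and a gene was called past 2-fold with at least 20 UMIs, beside the share of all genes called.

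All 10 Notch genes are named. Of the pathway list, the 2 genes with the largest ratio and the 2 targets highest over the other classes were named per class, and for each Notch gene the 3 genes with the highest Pearson correlation. The genes and lists were chosen with earlier results of these data known. 13 alternatives were planned and 2 were added after seeing the data. The steps were tested on simulated data. Gene positions came from GENCODE M21 and promoters from RefSeq. Python 3.11.15, numpy 2.4.6, scipy 1.17.1, pandas 2.3.3 and matplotlib 3.10.9 were used.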

Additional observations from a re-analysis of the deposited data

Results flagged for a closer look

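In 4 cases a gene was higher at P7 in at least 1 class and higher at P1 in at least 1 other, with the counting intervals on either side of 0. The classes furthest apart are given for each gene. Such cases were not counted over all genes. Each difference between the classes was not tested. The log2 ratio of P1 over P7 of Notch1 was 1.00 in fibroblasts and -0.34 in capillary cells, a difference of 1.34. That of Notch2 was 0.36 in fibroblasts and -0.75 in capillary cells, a difference of 1.11. The capillary value ranged from -1.34 to -0.38 over the 15 alternative settings, and fibroblast markers in capillary cells were also higher at P7. Notch4 had 1.13 in pericytes and -1.27 in arterial cells, a difference of 2.40, and the pericyte value ranged from 0.46 to 1.38 over the 15 alternative settings. Dll1 had 0.40 in capillary cells and -2.36 in arterial cells, a difference of 2.76, and the capillary value was -0.0058 without cells carrying a lung gene.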

How the results depend on the processing

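No paired analysis was possible because each age has 1 library. Each of 61 log2 ratios was recomputed under those of the 15 alternative settings that apply to it. The settings of at least 50 and at least 1 UMI only change which ratios are reported, so their 61 values each could not move. Of 875 values in all, 827, these included, stayed within the counting interval of the reported value. Of the rest, 47 fell outside it and 1 changed the direction of a called value. That value was Dll4 in fibroblasts, 0.99 with cells thinned to 2000 UMIs in place of -1.60. Of the 47 values outside the interval, 26 also came from this thinning, which lowered the number of gene and class pairs past 2-fold from 9 to 5. In 2 of the lost pairs, fibroblast Dll4 and arterial Notch4 (-0.64), the fold itself was lost, and the cause was not tested. Read without the rule of at least 20 UMIs, 9 of the 61 ratios passed 2-fold only after thinning. Under the other settings the number of pairs was between 6 and 13, with 13 where a single UMI was enough. Pairs over 2 times the mean of the other classes numbered 12 to 16 at P1 and 13 to 16 at P7, and 7 to 9 genes had the same leading class at both ages. The leading class passed to smooth muscle under several settings for Notch2 (from fibroblasts) and for P1 Jag1 (from arterial cells), and to endocardial cells for P7 Dll1 with the wider arterial gate. The alternatives without cells carrying stromal genes and with the wider arterial gate were chosen after seeing the data. With 39 arterial cells at P1 and 77 endocardial cells at P7, ratios in these classes rest on few cells, and the single library per age limits all of them.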

Other observations

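Cells outside the 6 classes were also read with gates chosen after values were seen. Cells with Cdh5 and Prox1, a lymphatic transcription factor (94 at P1, 97 at P7), had 177 and 201 CPM of Notch1, 39.2 and 35.6 CPM of Dll1 and 22.9 and 21.7 CPM of Hey2. Cells with Upk3b, a mesothelial gene (66 and 34), had 37.0 and 51.2 CPM of Notch2 and 0 UMIs of Dll4. Cells with Sox10, a neural crest and glial transcription factor (13 and 24), had 105 and 133 CPM of Notch1 and 52.7 and 70.0 CPM of Jag1. Cells with Cdh5, Gja4 and Sox17 but no Gja5 UMI (239 and 326) had 130.1 and 231 CPM of Hey1 and 34.6 and 86.2 CPM of Jag1, between the capillary and arterial levels.

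Gene pairs were also looked for in the same cells after thinning to 2000 UMIs, in 20 combinations of pair, class and library. Of 66 P1 capillary cells with a Dll4 UMI, 30.3% had a Notch1 UMI (19.6 to 42.9), against 15.7% of 779 without (13.2 to 18.4), and at P7 the shares were 26.8% of 406 cells (22.6 to 31.4) and 23.9% of 2127 (22.1 to 25.8). Only the P1 intervals of this pair were separate. At P7, and in all other combinations, the intervals with and without the first gene overlapped, and some combinations went the other way. Of 68 P7 arterial cells with a Jag1 UMI, 39.7% had a Hey1 UMI (28.0 to 52.3), against 58.8% of 80 without (47.2 to 69.6), and of 207 P7 fibroblasts with a Notch2 UMI, 0.966% had a Hey1 UMI (0.117 to 3.45), against 2.98% of 1913 without (2.26 to 3.84).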
